A study of Homo sapiens with 8 samples.

Results

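The 37 genes described here encode lysosomal enzymes and membrane proteins. They were chosen as a named list: 6 membrane proteins, 8 proteases, 8 enzymes that degrade glycans, 9 proteins of lipid degradation, 5 parts of the lysosomal proton pump and TFEB, the transcription factor that governs lysosomal genes. All 37 were on the array, among 43317 named genes. The list was drawn up around the treated-over-mock ratios on each array, with SCARB2 among the lowest with miR-140-5p, and around the mock levels by cell line, so both kinds of value are given below as descriptions and no test was made of them.

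Lysosomes are acidic compartments in which hydrolases break down proteins, glycans and lipids delivered by endocytosis and autophagy. Most soluble hydrolases reach them through mannose 6-phosphate tags, the vacuolar ATPase pumps in the protons they need, and transporters in the limiting membrane export the products. In cancer cells, lysosomes supply recycled nutrients, and several cathepsins, the lysosomal proteases, are also secreted and cut proteins of the extracellular matrix.

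Total RNA of treated and of mock cells was compared on 8 two-colour Agilent expression arrays, each holding 1 treatment in 1 established human cancer cell line. Bisamide, a small molecule, was given to PC3 prostate cancer cells for 24 h and for 48 h. The other arrays held miRNA transfections: C4-2, a further prostate cancer line, received miR-199-3p, and PC3 received miR-125b-1-3p. The 786-O renal cancer cells received either miR-532-5p or its partner strand miR-532-3p, and the T24 bladder cancer cells either miR-140-5p or its partner miR-140-3p. Mock RNA carried the dye Cy3 and treated RNA the dye Cy5 on all 8 arrays, with no dye swap. The labels call the mock cells untransfected and give a time for bisamide alone, so the miRNA and the transfection itself cannot be told apart. Each group held 1 array (n = 1), and no p-value or error between cultures could be given. In RNA of whole cultures, fewer cells that express a gene and less RNA per cell cannot be told apart.

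The lines were checked against marker genes fixed for them. In raw Cy3 intensity, the prostate antigen KLK3 stood at 13590 in C4-2 and at 21.4 to 22.6, not well above background, on the other 7 arrays, PC3 included. All 5 prostate genes checked were above background in C4-2. The renal genes PAX8, PAX2 and CDH6 were all above background in 786-O, and PAX8 and PAX2 also in T24, at 390 to 619. In 786-O, PAX8 stood at 235.4 and 239.2 and PAX2 at 123.7 and 112.2, both dimmer than in T24. Only CDH6 was brighter in 786-O, at 152.5 and 163.5, and was not well above background in T24. None of the 4 urothelial genes checked (UPK1B, UPK2, UPK3A and GATA3) was above background in T24, so these markers were absent from the line labelled bladder cancer. The summed raw Cy3 of 4 macrophage genes was at most 222.8 on any array.

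The 6 miRNAs are shown because their seeds, the bases 2 to 8 that pair with target RNA, set which transcripts a transfected strand can bind. The mature sequences are those of RefSeq, with the seed in capitals.
miR-199-3p: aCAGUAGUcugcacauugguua
miR-125b-1-3p: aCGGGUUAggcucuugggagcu
miR-532-5p: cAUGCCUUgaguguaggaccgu
miR-532-3p: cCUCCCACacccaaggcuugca
miR-140-5p: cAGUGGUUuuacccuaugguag
miR-140-3p: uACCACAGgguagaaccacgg
All 6 seeds differed from each other, so the strands of 1 precursor (MIR532 or MIR140) were compared as different miRNAs. The labelled name miR-199-3p matched the RefSeq miRNAs hsa-miR-199a-3p and hsa-miR-199b-3p, which share 1 mature sequence. The array probes themselves rarely held a complement of these seeds: it was found in 0 of the 52 probes for the 37 genes with 5 of the miRNAs, and in 1, a dimmer LAMP2 probe not used for the gene, with miR-140-3p. Among all 58201 probes the share that held it was 0.402% for the seed of miR-199-3p and 0.0361% for that of miR-125b-1-3p. It was 0.486% for the 5p and 0.411% for the 3p strand of MIR532, and 0.436% for the 5p and 0.607% for the 3p strand of MIR140. Target sites in whole transcripts were not analysed here.

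Most of the lysosomal genes stood close to their mock level on every array. The log2 ratio of treated over mock, in which 1 unit is a doubling, was measured for 291 of the 296 pairs of gene and array. A value counted as measured where the probe was well above background in both channels. Of these values, 261 lay within 0.5 of 0. Of all genes, 0.411% to 3.83% on an array were lower than −0.5, and 0.91% to 3.61% were higher than 0.5. Of the lysosomal values, 3 lay beyond 1.0 in size (0.38% of all genes' values did): SCARB2 with miR-140-5p, CTSZ with miR-532-3p and IDS with miR-140-3p. The remaining 5 pairs were dim. HEXA, a subunit of the enzyme that degrades GM2 ganglioside, was above background in neither channel on the 3 PC3 arrays. MCOLN1, a calcium channel of the lysosomal membrane, was above background in neither channel with miR-532-5p in 786-O and in Cy5 alone with miR-532-3p. The bound of treated over mock computed there was 1.097-fold. Its raw Cy3 was 24.4 and its raw Cy5 28.4, beside array medians of 22.96 and 18.72, so no higher level is read from this bound.

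**Figure D1:**
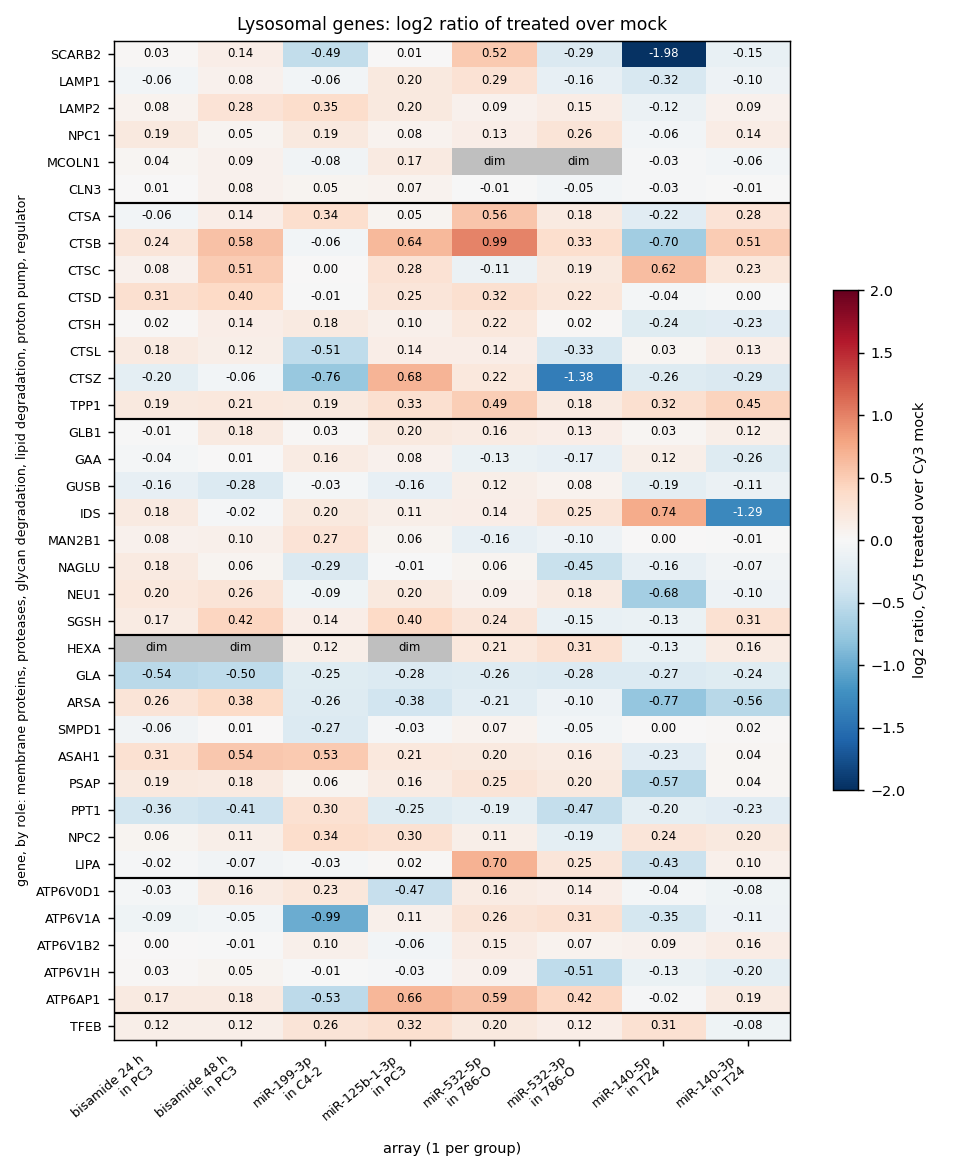
Each cell is the log2 ratio of treated (Cy5) over mock (Cy3) for 1 gene (row, grouped by role between the black lines) on 1 array (column), with blue for lower and red for higher in treated cells and "dim" where the gene was not above background in both channels. Most cells are pale, and the darkest are SCARB2 with miR-140-5p (−1.98), CTSZ with miR-532-3p (−1.38) and IDS with miR-140-3p (−1.29).

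SCARB2, a membrane protein that works as a sorting receptor for a lysosomal enzyme, had the lowest ratio of the 37 genes on any array, at −1.98 with miR-140-5p in T24, or 3.95-fold lower than mock. On the other T24 array, with miR-140-3p, its log2 ratio was −0.15. In PC3 it was 0.03 and 0.14 with bisamide (24 h and 48 h) and 0.01 with miR-125b-1-3p, in C4-2 it was −0.49, and in 786-O it was 0.52 with the 5p and −0.29 with the 3p strand of MIR532. The array with miR-140-5p thus stood alone, and C4-2 with miR-199-3p gave the next lowest value. The raw intensities placed this in the treated channel: raw Cy3 of SCARB2 was 956 to 1221 on all 8 arrays, with 1037 and 1140 on the T24 pair. Raw Cy5 was 400 with miR-140-5p, 1908 with its partner strand and 1084 to 2141 on the other 6 arrays. SCARB2 was the single lysosomal gene of the list past a log2 size of 1.5. The study stated the size of 1.5 for another miRNA transfected into PC3 and not for this array. On the miR-140-5p array, 0.0851% of all genes measured had a ratio below −1.5. It was read by 1 probe in 1 spot (GRCh37, chr4:77079916-77079975, minus strand), so the array gave no second reading of it. With only the median of each array taken off, the ratio was −1.33, where the median of all genes measured was 0.35.

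By the probe used for each gene, the other 5 membrane proteins stayed within 0.35 of 0 on all arrays where they were measured. LAMP1 and LAMP2, the abundant glycoproteins that line the lysosomal membrane, ranged from −0.32 to 0.29 and from −0.12 to 0.35. LAMP2 also had 2 dimmer probes for other transcripts, with a median raw Cy3 of 70.5 and 65.3 against 386, which read further from 0. The first was at −0.50 with miR-140-5p, and the second at 0.50 and 0.46 on the 786-O arrays and in T24 at −0.24 for the 5p and −0.49 for the 3p strand. The last value is that of the probe with the seed complement named above, on the array of that same miRNA, where the LAMP2 probe used read 0.09 and the remaining one 0.07. All 3 probes of LAMP2 lay below 0 with miR-140-5p. NPC1, which exports cholesterol from lysosomes, ranged from −0.06 to 0.26, MCOLN1 from −0.08 to 0.17, and CLN3, the membrane protein mutated in juvenile neuronal ceroid lipofuscinosis, from −0.05 to 0.08. With miR-140-5p the probes used for all 6 membrane proteins lay below 0, but those other than SCARB2 and LAMP1 by no more than 0.12. NPC1 was printed in 10 spots on each array, and their SD was 0.036 to 0.074, which is the error of reading within 1 array and not of repeating the culture.

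Among the 8 proteases the widest values belonged to CTSZ and CTSB. CTSZ (cathepsin Z, a carboxypeptidase) was lowest in 786-O with miR-532-3p, at a log2 ratio of −1.38, and stood at 0.22 in the same line with the 5p strand. In C4-2 it was at −0.76, in PC3 at 0.68 with miR-125b-1-3p and at −0.20 and −0.06 with bisamide (24 h and 48 h), and in T24 at −0.26 and −0.29 with the 5p and 3p strands of MIR140. The strands of MIR532 in the same line were thus 1.59 apart for CTSZ, the widest gap of the 36 genes measured on both 786-O arrays. Its raw Cy3 was 618 and 664 on these arrays and its raw Cy5 657 with the 5p and 321 with the 3p strand. The probe used lies at chr20:57570361-57570420 (GRCh37, minus strand), and a second, dimmer CTSZ probe at chr20:57571653-57571712, designed on another transcript, gave 0.23 with miR-532-3p and −0.03 to 0.08 on the other arrays. The probes of CTSZ therefore disagreed, and the low value rests on the brighter of them.

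CTSB (cathepsin B, a cysteine protease often secreted by tumour cells) was past 0.5 in the higher direction on 4 arrays, more than any other of the 37 genes. In 786-O its ratio was 0.99 with the 5p and 0.33 with the 3p strand of MIR532, in PC3 it was 0.24 and 0.58 with bisamide (24 h and 48 h) and 0.64 with miR-125b-1-3p, and in C4-2 it was −0.06. In T24 it was −0.70 with miR-140-5p but 0.51 with the 3p strand. T24 cells thus gave opposite signs for the strands of MIR140, 1.21 apart. Raw Cy5 of CTSB was 198 with the 5p and 560 with the 3p strand, against raw Cy3 of 232 and 226. Since 6 of the 8 arrays lay above 0, the median over arrays of the other lines was also taken off, which gave 0.61 for the miR-532-5p array, −1.16 for miR-140-5p and 0.05 for its 3p strand.

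The remaining proteases moved less. CTSC (dipeptidyl peptidase 1, which activates granule serine proteases) was at 0.62 with miR-140-5p and 0.51 with bisamide at 48 h, but its dimmer probes read −0.10 and 0.10 on the first of these arrays and 0.03 and 0.61 on the second. CTSL (cathepsin L, an endopeptidase) was at −0.51 with miR-199-3p, where its second probe gave −0.36. CTSA (the protective protein that stabilises sialidase and β-galactosidase) was at 0.56 with miR-532-5p and at 0.45 by its second probe. CTSD, the aspartic protease cathepsin D, ranged from −0.04 to 0.40, and CTSH, an aminopeptidase, from −0.24 to 0.22. TPP1, a tripeptidyl peptidase, was at 0.18 to 0.49 on all 8 arrays, yet its second probe of like brightness gave −0.30 with miR-140-5p against 0.32.

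**Figure D2:**
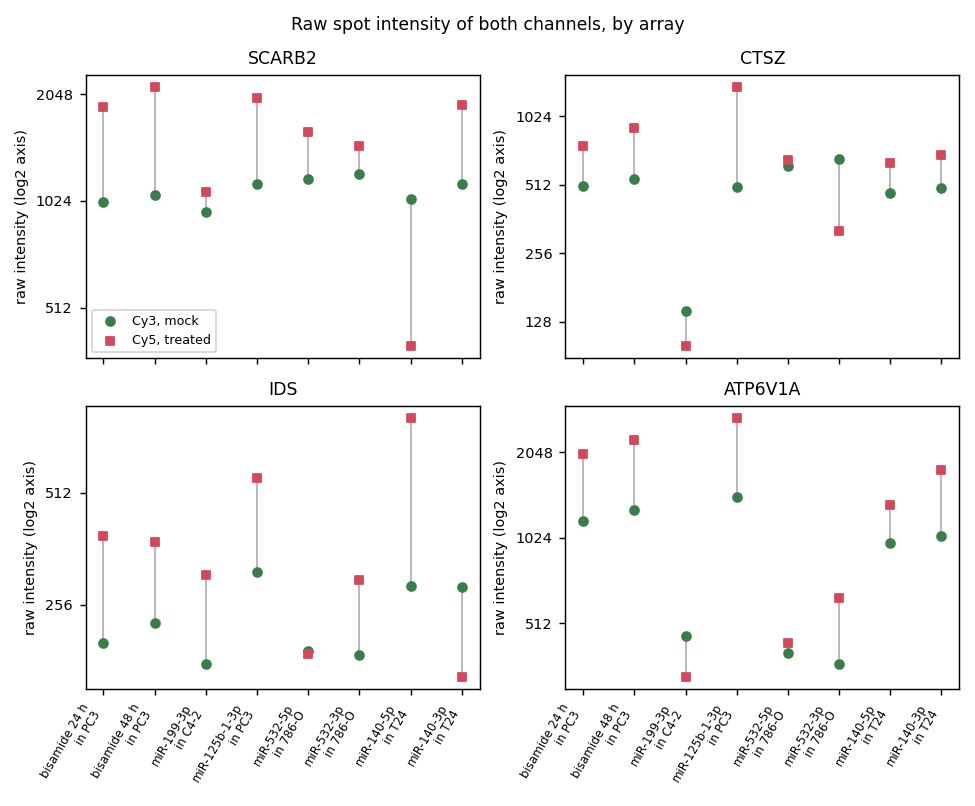
Raw spot intensity (log2 axis) of mock RNA (green circles, Cy3) and treated RNA (red squares, Cy5) for SCARB2, CTSZ, IDS and ATP6V1A on the 8 arrays, with a grey line joining both channels of an array. Treated SCARB2 drops to 400 with miR-140-5p while its mock stays between 956 and 1221, and treated IDS is 809 and 165 with the 5p and 3p strands of MIR140 over like mocks.

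Of the 8 enzymes of glycan degradation, only IDS and NEU1 passed 0.5 on an array. IDS (iduronate 2-sulfatase, which degrades dermatan and heparan sulfate) was at 0.74 in T24 with miR-140-5p and at −1.29 in T24 with the 3p strand. In PC3 it was at 0.18 and −0.02 with bisamide (24 h and 48 h) and at 0.11 with miR-125b-1-3p, in C4-2 at 0.20, and in 786-O at 0.14 and 0.25. The T24 arrays thus held both its highest and its lowest value, 2.03 apart, over raw Cy3 of 288 and 287. Raw Cy5 was 809 with the 5p and 165 with the 3p strand. The probe used lies at chrX:148568700-148568759 (GRCh37, minus strand). The other 3 IDS probes were dimmer, with a median raw Cy3 of 31.3 to 59.2 against 216, and gave 0.18 to 0.53 for the 5p strand and −0.26 to −0.01 for the 3p strand. All 4 probes lay above 0 with the 5p strand and below 0 with the 3p strand, at sizes that differed. IDS has a pseudogene copy, and whether its RNA adds to these probes was not tested.

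NEU1, the sialidase that CTSA protects, was at −0.68 with miR-140-5p and between −0.10 and 0.26 elsewhere. SGSH and NAGLU, which act on heparan sulfate, ranged from −0.15 to 0.42 and from −0.45 to 0.18. GLB1 (β-galactosidase) ranged from −0.01 to 0.20, GAA (acid α-glucosidase, which degrades glycogen) from −0.26 to 0.16, MAN2B1 (α-mannosidase) from −0.16 to 0.27 and GUSB (β-glucuronidase) from −0.28 to 0.12. GUSB was also printed in 10 spots, with an SD of 0.025 to 0.050 within an array.

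In lipid degradation, ARSA and PSAP were low with miR-140-5p. ARSA (arylsulfatase A, which degrades sulfatide) was at −0.77 and −0.56 in T24 with the 5p and 3p strands of MIR140, at −0.38 to −0.10 on the other miRNA arrays and at 0.26 and 0.38 with bisamide. PSAP, the precursor of the saposins that help enzymes reach their lipids, was at −0.57 with miR-140-5p and between 0.04 and 0.25 elsewhere. Its second probe gave −0.55, so both probes of PSAP read alike there. With only the array medians taken off, ARSA stood at −0.06 and PSAP at 0.14 with miR-140-5p, so the sign of PSAP turned. The median of all genes measured was then 0.35 on that array, and both genes stayed below it.

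GLA (α-galactosidase A) lay below 0 on all 8 arrays, from −0.54 with bisamide at 24 h and −0.50 at 48 h to −0.24 with miR-140-3p. The 6 miRNA arrays gave nearly the same value, −0.28 to −0.24, and with the median over other arrays taken off (those of other lines, or for bisamide those of the miRNAs) they gave −0.02 to 0.04 and bisamide −0.27 and −0.24. The PC3 mocks of GLA also differed. Raw Cy3 was 2321 and 1896 on the bisamide arrays (24 h and 48 h) and 1070 on that of miR-125b-1-3p, and raw Cy5 was 3012, 2484 and 1506. With median centring the sign of GLA turned on 7 arrays, all but miR-532-5p. The median of all genes also rose on those arrays, and GLA stayed below it on every array outside T24. In T24 it stood above it, at 0.50 against 0.35 with the 5p and 0.60 against 0.45 with the 3p strand. PPT1, which removes palmitate from proteins, was likewise below 0 on 7 arrays, from −0.47 to −0.19, and at 0.30 with miR-199-3p. Its dimmer second probe ranged from −0.07 to 0.11.

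LIPA (lysosomal acid lipase) was at 0.70 and 0.25 in 786-O with the 5p and 3p strands of MIR532, at −0.43 in T24 with miR-140-5p and within 0.10 of 0 elsewhere. ASAH1 (acid ceramidase) was at 0.54 with bisamide at 48 h, 0.31 at 24 h and 0.53 with miR-199-3p, and at −0.23 to 0.21 on the other arrays. NPC2, the soluble partner of NPC1, ranged from −0.19 to 0.34, SMPD1 (acid sphingomyelinase) from −0.27 to 0.07, and HEXA from −0.13 to 0.31 on the 5 arrays that measured it.

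The subunits of the proton pump did not move as a unit. ATP6V1A, the catalytic subunit, was at −0.99 with miR-199-3p in C4-2, 1.98-fold lower than mock, and at −0.35 to 0.31 on the other 7 arrays. On the same array ATP6AP1, an accessory subunit, was at −0.53, while ATP6V0D1, ATP6V1B2 and ATP6V1H were at 0.23, 0.10 and −0.01. Raw Cy5 of ATP6V1A was 332 against a raw Cy3 of 461 there, and on the other arrays Cy5 exceeded Cy3. ATP6AP1 was at 0.66 in PC3 with miR-125b-1-3p and at 0.59 and 0.42 on the 786-O arrays. ATP6V1H was at −0.51 with miR-532-3p, ATP6V0D1 at −0.47 with miR-125b-1-3p, and ATP6V1B2 stayed between −0.06 and 0.16. With median centring ATP6V1A stood at −0.44 with miR-199-3p and ATP6AP1 turned to 0.04, where the median of all genes was 0.30.

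TFEB itself changed little by its brighter probe. In PC3 it was at 0.12 with bisamide at both times and at 0.32 with miR-125b-1-3p, and in C4-2 at 0.26. In 786-O it was at 0.20 and 0.12, and in T24 at 0.31 with the 5p and −0.08 with the 3p strand of MIR140. A second, dimmer TFEB probe gave 0.91 with miR-199-3p and −0.23 with miR-140-5p, and −0.08 to 0.44 was the range of both probes on the other 6 arrays. With miR-140-5p the probes had opposite signs, so no direction of TFEB could be given there.

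**Figure D3:**
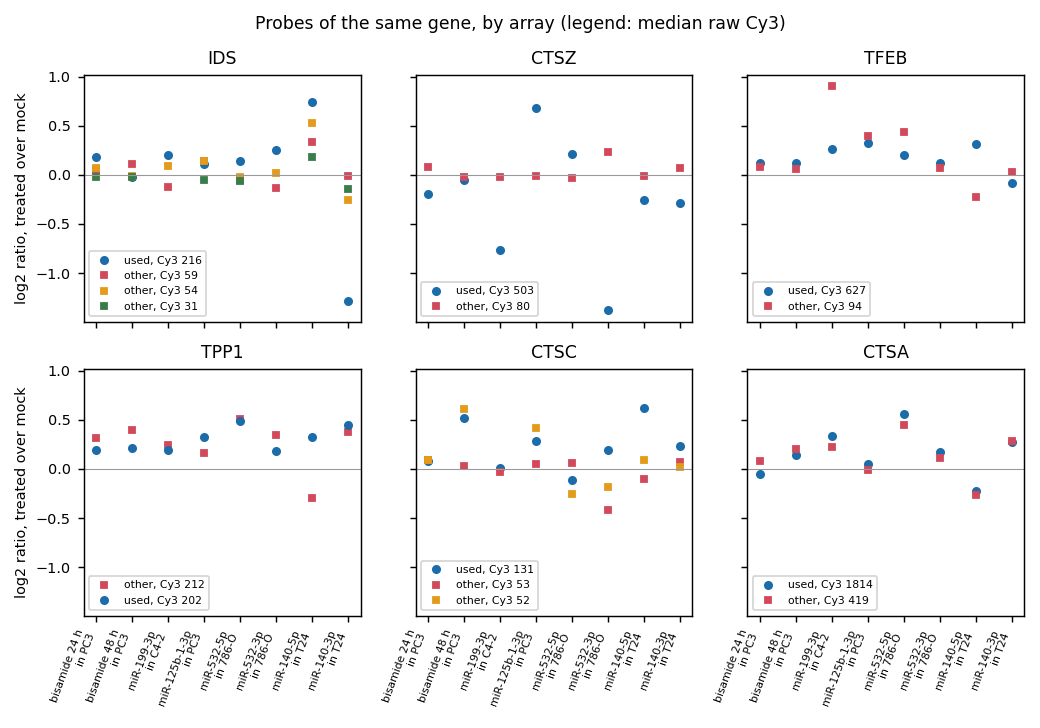
Log2 ratio (vertical axis) of each probe of IDS, CTSZ, TFEB, TPP1, CTSC and CTSA on the 8 arrays, with the probe used as a blue circle and the other probes of the gene as squares; the legend gives the median raw Cy3 intensity. The CTSA probes lie together on every array, while the CTSZ probes part with miR-532-3p (−1.38 against 0.23) and the TPP1 probes with miR-140-5p (0.32 against −0.30).

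Taken array by array, the 37 genes leaned slightly up on most arrays and down with miR-140-5p. Their median log2 ratio in PC3 was 0.05 and 0.12 with bisamide (24 h and 48 h) and 0.11 with miR-125b-1-3p. It was 0.03 in C4-2, 0.15 and 0.10 in 786-O with the 5p and 3p strands of MIR532, and −0.13 and −0.01 in T24 with those of MIR140. The median of all genes measured was within 0.02 of 0 on each array. With miR-140-5p, 11 of 37 lysosomal genes lay above 0, against 52.4% of all genes, and with miR-532-5p 29 of 36 did, against 50.1%. With bisamide at 48 h 28 of 36 lay above 0 (54.2% of all genes) and with miR-125b-1-3p 27 of 36 (54.4%). These shares describe single arrays, and the genes are not replicates of a treatment.

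The medians were small beside their dependence on the centring. When only the array median was taken off, without the intensity-dependent loess fit, the median of all genes moved to between −0.03 and 0.45, and the lysosomal genes stood above it on every array, by 0.07 with miR-532-5p up to 0.38 with bisamide at 48 h. The direction on both T24 arrays was thus turned. With the median over other arrays taken off, the difference between lysosomal and all genes turned to −0.026 with bisamide at 24 h and to −0.021 with miR-532-3p.

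Single genes past 0.5 on the log2 scale were few on each array. With miR-140-5p in T24, 5 of 37 were lower than −0.5 (2.89% of all genes) and 2 were higher than 0.5 (1.74%). The 5 were SCARB2, ARSA, CTSB, NEU1 and PSAP, and the 2 were IDS and CTSC. At a size of 1.0, SCARB2 alone remained (0.323% of all genes were lower). With miR-140-3p in the same line, 2 of 37, IDS and ARSA, were lower (1.1%) and 1, CTSB, was higher (0.992%), and IDS alone was lower than −1.0 (0.0856%). TPP1 followed CTSB as the second highest, at 0.45. ARSA was thus the one lysosomal gene below −0.5 on both T24 arrays.

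With miR-532-5p in 786-O, 5 of 36 genes were higher than 0.5, against 3.61% of all genes, and none was lower than −0.5, against 3.67%. The 5 were CTSB, LIPA, ATP6AP1, CTSA and SCARB2, and the lowest were GLA at −0.26 and ARSA at −0.21. With miR-532-3p, 2 of 36 were lower (3.83%), CTSZ and ATP6V1H, and none was higher (1.71%), with CTSB and ATP6AP1 the highest. CTSZ alone was lower than −1.0 (0.55%). The miR-199-3p array in C4-2 had 4 of 37 lower (2.74%), ATP6V1A, CTSZ, ATP6AP1 and CTSL, and 1 higher (1.75%), ASAH1, followed by LAMP2 at 0.35.

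In PC3, bisamide at 24 h left 1 of 36 genes lower, GLA (0.411%), and none higher (1.05%). GLA and PPT1 were the lowest, and CTSD and ASAH1, at 0.31 each, the highest. At 48 h, GLA was again lower (0.883%), and 3 of 36 were higher (0.91%), namely CTSB, ASAH1 and CTSC. With miR-125b-1-3p in PC3, none of 36 was lower (0.883%) and 3 were higher (1.77%): CTSZ, ATP6AP1 and CTSB. The lowest there were ATP6V0D1 and ARSA. Just outside the size of 0.5 were SCARB2 at −0.49 with miR-199-3p and TPP1 at 0.49 with miR-532-5p, and just inside were GLA at −0.50 with bisamide at 48 h and CTSL and ATP6V1H at −0.51.

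With median centring the split between lower and higher genes lay on the higher side on all 8 arrays, and the median of all genes moved up on 7 of them. The counts higher than 0.5 were then 29, 30, 18, 28, 2, 14, 16 and 26 of the 36 or 37 genes, beside 45.0%, 44.0%, 28.6%, 41.2%, 2.34%, 16.3%, 35.8% and 45.0% of all genes, in the order of the plots (bisamide at both times, C4-2, PC3 with its miRNA, the 786-O pair and the T24 pair, the 5p strand of a pair first). Those lower than −0.5 were none on the first 5 of these arrays and 1 on each of the last 3, against 2, 5 and 2 by the main setting. The shares of all genes lower than −0.5 were 0.026%, 0.0263%, 0.58%, 0.0428% and 5.95% on those 5 arrays and 1.23%, 0.335% and 0.0627% on the last 3. The gene left on each of those 3 arrays was CTSZ, SCARB2 and IDS in turn.

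**Figure D4:**
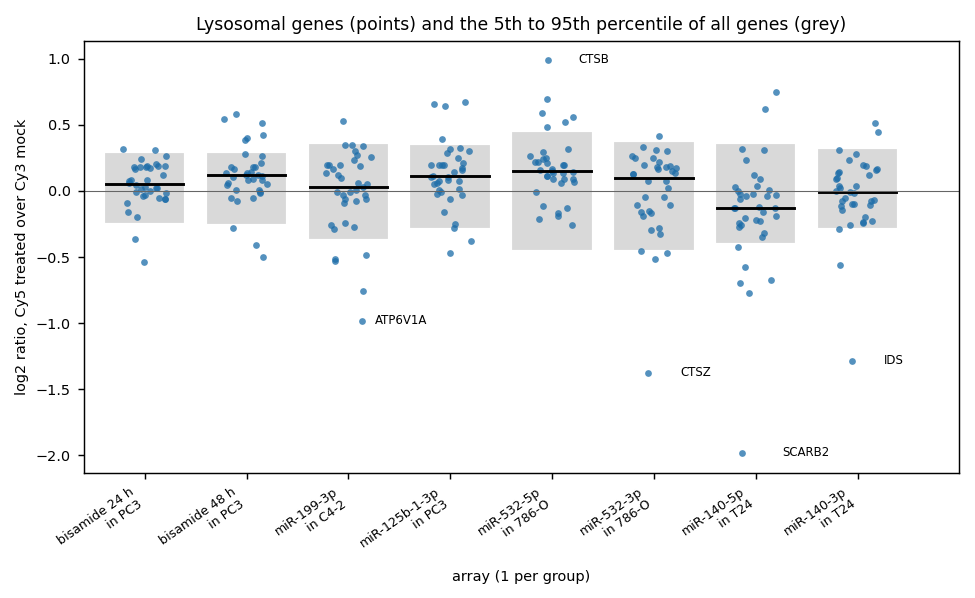
Log2 ratio (vertical axis) of each lysosomal gene (blue points) on each array, with their median (black line) and the 5th to 95th percentile of all genes measured on that array (grey box). Most points lie within the grey box, and the named genes past 0.9 in size are ATP6V1A, CTSB, CTSZ, SCARB2 and IDS, on 5 different arrays.

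Arrays of the same line were set side by side gene by gene, although the labels do not say whether their mock RNA came from separate cultures. Between bisamide at 24 h and at 48 h, no gene of 36 differed by more than 0.5 (0.299% of all genes did), and the widest gap was 0.43, for CTSC. Between the strands of MIR532, 5 of 36 did (8.88%), and between those of MIR140, 6 of 37 did (5.92%), with 3 past 1.0: IDS, SCARB2 and CTSB. The median size of the gap was 0.08, 0.12 and 0.20 in these pairs. Over all genes, too, the share was smallest for the bisamide pair. It was larger for the strands of MIR532 than for those of MIR140. The lysosomal counts of 5 of 36 and 6 of 37 were too close to be ordered.

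A second list of 60 lysosomal genes outside the 37 (further hydrolases, pump subunits, membrane transporters and parts of the nutrient-sensing machinery on the lysosome) was read in the same way. Of these, 53 to 58 were measured on an array. Their medians in the order of the plots were 0.03, 0.06, 0.02, 0.11, 0.10, 0.02, −0.11 and 0.04, so the miR-140-5p array again had the lowest median by the main setting. The counts lower than −0.5, in the order of the plots, were 0, 1, 2, 0, 1, 2, 6 and 4. The shares of all genes lower than −0.5 were 0.411%, 0.883%, 2.74%, 0.883%, 3.67%, 3.83%, 2.89% and 1.1%. The counts higher than 0.5 were 0, 0, 2, 4, 4, 2, 1 and 1. The shares of all genes higher than 0.5 were 1.05%, 0.91%, 1.75%, 1.77%, 3.61%, 1.71%, 1.74% and 0.992%.

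Of the second list, 3 genes passed 1.0 in size. Of all genes, 0.55% were lower than −1.0 with miR-532-3p and 0.323% with miR-140-5p. CD63, a tetraspanin of late endosomes, was at −1.28 with miR-532-3p and at 0.06 with the 5p strand. MITF, a transcription factor of the TFEB family, was at −1.25 and −0.69 in T24 with the 5p and 3p strands of MIR140, and within 0.14 of 0 on the other 6 arrays. CTSV (cathepsin V) was at −1.003 with miR-140-5p and was also the lowest of the second list with bisamide, at −0.35 and −0.55, with miR-199-3p, at −0.80, and with miR-532-5p, at −0.83. The lowest genes on the other 2 arrays were FLCN, a regulator of nutrient sensing, at −0.27 with miR-125b-1-3p and ATP6AP2, a pump accessory subunit, at −0.86 with miR-140-3p.

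The highest values of the second list were smaller. Among them were SUMF1, which activates sulfatases, at 0.39 and 0.37 with bisamide, the membrane protein LAPTM4A at 0.60 with miR-199-3p, and the protease CTSO at 0.87 with miR-125b-1-3p. In 786-O with miR-532-3p it was the pump subunit ATP6V1G1 at 0.71. In T24 the amino acid transporter SLC36A1 was at 0.60 with miR-140-5p and the sialic acid transporter SLC17A5 at 0.55 with miR-140-3p.

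The mock channels gave the level of the same genes in 4 lines without treatment, as log2 Cy3 intensity made comparable across the 8 arrays by quantile normalization. PC3 was represented by 3 mock channels, 786-O and T24 by 2 each and C4-2 by 1. For each gene the mean of a line was set against the mean of the other 3 lines, for the same probe only. The range of the 4 line means exceeded 1 for 23 of the 37 genes and 2 for 8, and exceeded 1 for 29.1% of all 20452 genes above background in any line. The median range was 1.15 for the lysosomal genes and 0.62 for all genes, and the median SD between the 3 PC3 mocks was 0.11 and 0.065. Both range and SD were thus larger for the lysosomal genes. The list was in part chosen on these levels, so nothing is read from its ranges or counts against those of all genes. For C4-2 no spread could be had.

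CTSH, the cathepsin H gene, had the widest range. It was at 10.40 in C4-2, 8.72-fold higher than the mean of the other lines, at 7.33, 7.36 and 8.36 in the PC3 mocks, at 7.53 in both 786-O mocks, and at 6.63 and 6.61 in T24. The PC3 mocks did not agree, and that of the miR-125b-1-3p array stood 1.01 above the mean of the others. CTSC was high in PC3, at 9.20 to 9.65, 5.32-fold above the other lines, at 7.72 and 7.76 in 786-O, 7.19 and 7.21 in T24 and 6.07 in C4-2. CTSA had the reverse place for C4-2: it was at 8.22 there, 6.31-fold below the other lines, and at 10.72 to 11.18 in all other channels.

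GAA divided the lines into pairs, with the prostate lines at 10.58 (C4-2) and 11.03 to 11.44 (PC3), and 786-O and T24 at no more than 8.55. It was 4.004-fold higher in PC3 than in the mean of the other lines. HEXA was above background in C4-2 (7.48), 786-O (7.23 and 7.30) and T24 (mean 8.03) and not well above it in PC3 (5.75 to 5.79). Taken as a bound, HEXA was at least 4.63-fold higher in T24, 3.16-fold higher in C4-2 and 2.73-fold higher in 786-O than in PC3. MCOLN1 was the reverse, not well above background in 786-O and at least 1.51-fold higher in PC3.

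The 786-O mock had the highest level of several cathepsins and of TFEB. CTSD was 4.22-fold above the mean of the other lines (9.93 and 9.91, against 7.68 to 8.04 in every other channel), CTSZ 3.06-fold, CTSL 2.35-fold, TFEB 2.32-fold and LIPA 2.00-fold. TFEB was at 10.43 and 10.23 in 786-O, 9.498 in C4-2, 8.78 to 9.02 in PC3 and 9.01 and 8.93 in T24, so PC3 and T24 could not be ordered. SCARB2 was at 10.88 and 10.96 in 786-O, 10.63 in C4-2, 9.89 and 9.99 in T24 and 9.47 to 9.60 in PC3, in that order, and no line differed from the mean of the others by more than 0.94.

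Counts by line ran as follows. In C4-2, 5 of 37 genes were more than 1 higher than in the other lines (6.71% of all genes) and 6 more than 1 lower (6.33%): CTSH, ARSA, NEU1, GAA and ASAH1 against CTSA, CTSC, GLA, LAMP1, CTSZ and CTSB. In PC3, CTSC, GAA and CTSA were higher (3 of 37, 4.21%) and HEXA, CTSL and ARSA lower (3 of 37, 3.03%). In 786-O, the 5 named above were higher (4.38%) and GAA alone was lower (2.78%). In T24, HEXA alone was higher (3.21%) and CTSH and GAA lower (2 of 37, 3.1%).

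Some of these calls rested on the scaling. The Cy3 channels of C4-2 and 786-O were dimmer, with a 75th percentile of raw Cy3 of 35.9 to 37.04, against 49.0 to 58.6 in T24 and PC3, so the lines with few arrays also differed in brightness. Of the 26 differences past 1, which involved 16 genes, 18 stayed past 1 in the same direction with scaling to the 75th percentile, with Aquantile and with an offset of 0, and none changed sign. The 8 that did not were CTSL and ARSA in PC3, GAA, NEU1 and ASAH1 in C4-2, and CTSL, LIPA and TFEB in 786-O, each of which fell short with the 75th percentile. TFEB in 786-O then stood at 0.77 on the log2 scale.

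Repeated mocks of 1 line read alike, apart from PC3. The mocks on the T24 arrays differed by at most 0.12 for any of the 37 genes, and those on the 786-O arrays by at most 0.20, for TFEB. Both are below every difference past 1 named above, but not below every smaller gap between lines. Whether each pair was the same RNA is not stated in the labels. Among the PC3 mocks, that of the miR-125b-1-3p array differed from the mean of the others by more than 0.5 for 2 of 37 genes, CTSH (1.01 higher) and GLA (1.01 lower). GLA was at 10.64 and 10.39 on the bisamide arrays and at 9.51 on this one. The cause of these differences was not tested. Without that mock, 5 rather than 3 genes were more than 1 higher in PC3.

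**Figure D5:**
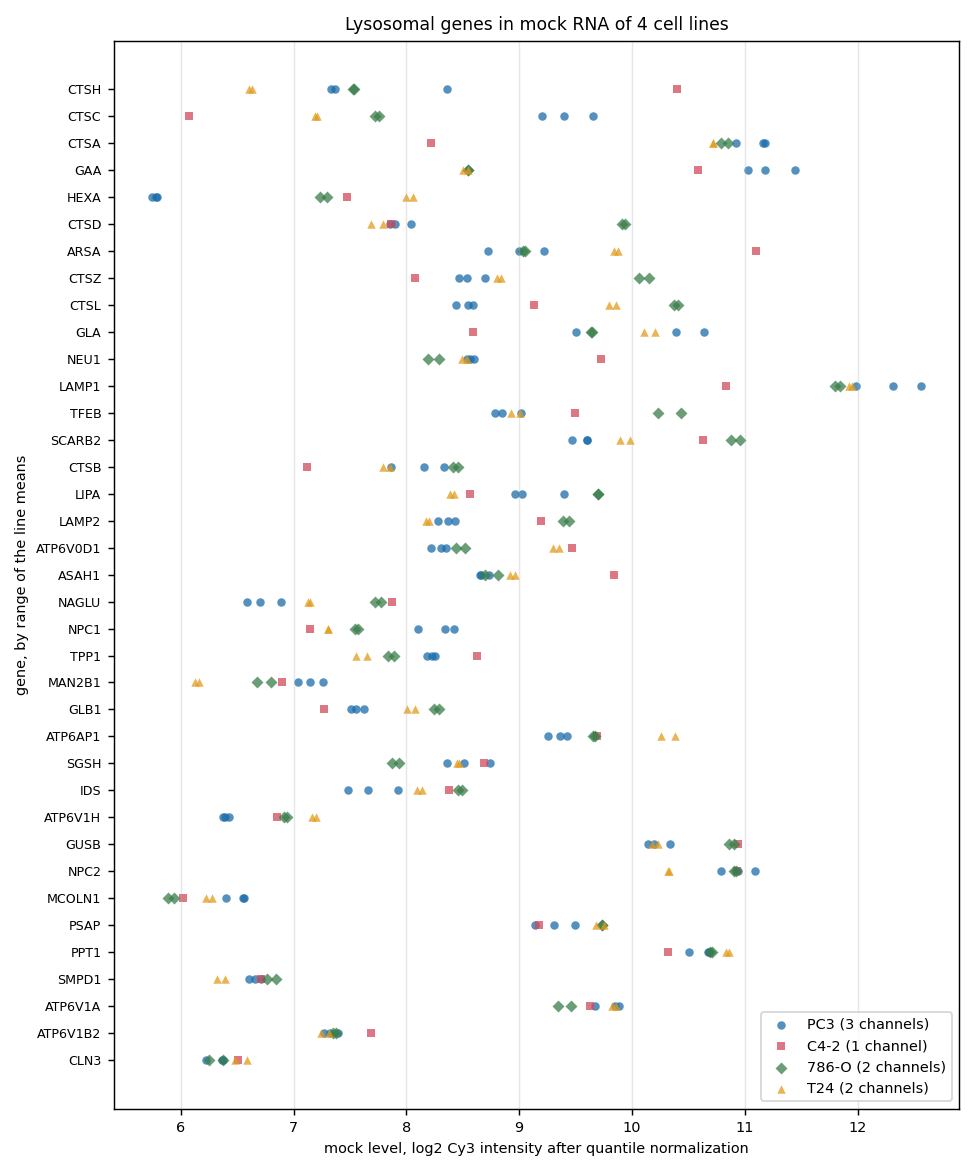
Mock level of each gene (row, ordered by the range of the line means) as log2 Cy3 intensity after quantile normalization, with 1 symbol per mock channel and 1 colour and shape per line. Levels of different genes come from different probes and are not comparable; within a row, CTSH stands apart in C4-2 (10.40), CTSC in PC3 (9.20 to 9.65) and CTSD in 786-O (9.91 and 9.93).

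A sequence feature not read from the arrays was found in the promoters of some of the genes. TFEB and its relatives bind an E-box, CACGTG, and lysosomal promoters often carry a longer form of it known as the CLEAR element, which has G before and C after the letters TCACGTGA. Promoter windows, from 250 bases before to 50 after the start of a gene, were given by RefSeq (GRCh38.p14) for 26 of the 37 genes. CACGTG was in 8 of the 26 (30.8%), against 8.77% of 27305 genes with such a window. TCACGTGA was in 6 (23.1%), against 1.18%, and the CLEAR element in 2 (7.69%), GAA and MCOLN1, against 0.421%. The letters read the same on both strands, and each longer motif contains the shorter ones, so the 3 counts overlap. Because lysosomal promoters are known for these letters, a list of lysosomal genes was bound to be rich in them. The shares are therefore a description and no independent support for the list. For 11 of the 37 genes no window was given.

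The genes with CACGTG were LAMP1, MCOLN1, CLN3, CTSA, CTSD, GAA, NEU1 and ATP6V0D1. LAMP1 held it 6 times, MCOLN1, CLN3, CTSA and GAA 2 times each and the others once. Stretches of 30 bases are shown for 5 of them, so that the longer forms can be seen in place, 5′ to 3′ on the strand of the gene, with the longest matching motif in capitals.
GAA, chr17:80101493-80101522, plus strand: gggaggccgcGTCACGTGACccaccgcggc
GAA, chr17:80101538-80101567, plus strand: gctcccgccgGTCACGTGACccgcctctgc
MCOLN1, chr19:7522598-7522627, plus strand: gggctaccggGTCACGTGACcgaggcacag
LAMP1, chr13:113297199-113297228, plus strand: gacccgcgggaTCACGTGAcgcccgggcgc
CTSA, chr20:45891298-45891327, plus strand: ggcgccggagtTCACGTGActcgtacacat
ATP6V0D1, chr16:67481199-67481228, minus strand: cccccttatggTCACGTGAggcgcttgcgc
A match is a description of the letters and was not tested as a binding site.

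Genes with the E-box had ratios much like those without it. The median log2 ratio of those measured was −0.01 with the motif and 0.04 without it for bisamide at 24 h, and 0.11 in both sets at 48 h. In the same order it was 0.13 and 0.11 with miR-125b-1-3p and 0.02 in both sets in C4-2. For MIR532 it was 0.16 and 0.14 with the 5p strand and 0.14 and 0.05 with the 3p strand, and for MIR140 −0.04 and −0.01 with the 5p strand and −0.07 and 0.01 with the 3p strand. The medians of both sets lay within the range of either set on every array. NEU1, at −0.68 with miR-140-5p, was the lowest value of any gene with the motif.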

How the data were processed

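RNA of treated and mock cells was hybridised to 8 two-colour arrays on 1 slide, 1 array per group. Per the file headers, the authors scanned the slide and ran Feature Extraction 11.5.1.1 of Agilent. The deposited files hold the mean spot intensity and background intensity of each channel on a linear scale, a log10 ratio of Cy5 over Cy3 from background-subtracted and dye-normalized signals, and flags for outlier, saturated and well-above-background spots. The deposited series table held that same log10 ratio. Probe coordinates are those of GRCh37, and exon annotation of that build was not used here.

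From the deposited intensities a log2 ratio was computed with limma 3.58.1 in R 4.3.3: normexp background correction with an offset of 50, then loess within each array. Control spots and 126 to 181 outlier spots per array were left out, no spot was saturated, and the spots of a probe were averaged. The brightest probe stood for a gene (35 of the 37 genes were measured on all arrays; 11 had more than 1 probe). The script was tested on simulated data, and the offset shrinks the ratios of dim spots. Mock levels are log2 Cy3 after quantile normalization. Bounds for genes dim in 1 channel came from loess and Aquantile values, and are open to dye bias.

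The members and lists were chosen with earlier results of these data known. All 37 genes were reported. Given in full were SCARB2, TFEB and genes past 1.0, with the lowest and highest 2 per array, genes past 1.0 in mocks, and the lowest, highest and past-1.0 genes of the second list, of which some genes are not reported here. Sizes of 0.5 and 1.0 were chosen here, and 1.5 is the size the study stated for another miRNA transfection. The number of arrays limits the precision. Alternatives were other background corrections, centrings, scalings, probe rules and filters. Lysosomal gene ATP6V0A2 was not matched by name.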

Additional observations from a re-analysis of the deposited data

Results flagged for a closer look

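IDS and CTSB, of the 37 lysosomal genes, had opposite signs with the strands of MIR140 in T24, with a size past 0.5 on both arrays. The ratio of IDS was 0.74 for the 5p and −1.29 for the 3p strand, 2.03 apart. That of CTSB was −0.70 for the 5p and 0.51 for the 3p strand, and the 5p strand minus the 3p strand came to −1.21. Each strand had 1 array, so neither difference was tested. For IDS the dimmer probes had the same signs at smaller sizes, and for CTSB there was no second probe.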

How the results depend on the processing

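No paired analysis was possible because every treatment had 1 array alone. The repeat spots of 300 probes had a median SD of 0.039 to 0.053 within an array, which is the only error measured for the ratios, and all arrays shared 1 dye orientation. The low values of SCARB2, CTSZ and IDS stayed below 0 under all alternatives run. The medians of the 37 genes relative to all genes moved by more than the spread allowed in 8 of 64 alternatives: with median centring they were 0.34, 0.38, 0.19, 0.35, 0.28, 0.091 and 0.23 on the arrays other than miR-532-5p, in the order of the plots, and with the median of the other arrays taken off that of miR-532-3p was −0.021. The loess fit follows intensity and the median does not, and the cause was not tested further.

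SCARB2 with miR-140-5p was at −2.16 with plain background subtraction, with an offset of 0 and by the scanner's own ratio (−2.155), at −2.12 without background correction and at −1.33 with median centring. The values past 1.5 over the 8 arrays were 3 with the first 4 of these (CTSZ and IDS added) and 0 with median centring. With median centring, CTSZ with miR-532-3p was at −0.97 and IDS with miR-140-3p at −0.73, so neither stayed past 1.0. The median of all genes was then 0.17 and 0.45 on these arrays. With the mean over probes, CTSZ with miR-532-3p was at −0.58 and IDS with miR-140-3p at −0.42.

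Counts past 0.5 moved by over 1.5 times in 54 of 144 alternatives. With median centring the higher counts were 29, 30, 18, 28, 2, 14, 16 and 26, and the lower ones 0 or 1. With the size of 1.0 the lower counts were 1 on both T24 arrays and with miR-532-3p and 0 elsewhere, and the higher counts were 0. By the scanner's own ratio, miR-199-3p had 7 lower and 2 higher, bisamide had 0 lower at both times, 1 was lower with miR-125b-1-3p and for the 5p strand of MIR532, and 1 was higher for its 3p strand. With the median of the other arrays taken off, the lower counts were 0 with bisamide and 1 with miR-125b-1-3p and for the 3p strands of MIR532 and MIR140. The higher ones were 1 on the PC3 arrays and with miR-140-5p, 3 with miR-532-5p and 0 for the 3p strand of MIR140. Averaging probes gave miR-199-3p 2 lower and 2 higher, and in T24 0 higher for the 5p and 1 lower for the 3p strand. Plain subtraction gave C4-2 2 higher, miR-532-3p 1 higher and, like no correction and an offset of 0, miR-125b-1-3p 1 lower. Without correction miR-532-3p had 4 lower.

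In the mocks, counts past 1 moved in 11 of 64 alternatives. Scaled to the 75th percentile, PC3 had 1 lower and 6 higher, C4-2 2 higher, 786-O 4 lower and 2 higher and T24 2 higher. With an offset of 0, PC3 had 5 lower and 6 higher and 786-O 2 lower, and averaging probes gave 786-O 3 higher. Leaving out each PC3 mock in turn gave 2 to 3 lower and 3 to 5 higher in PC3, the 5 without the mock of the miR-125b-1-3p array, 5 to 6 lower in C4-2 and 4 to 5 higher in 786-O.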
